A study of Mus musculus with 4 samples.

Results

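The 39 genes described here encode soluble hydrolases of the lysosome, the activator proteins that present lipids to them, and proteins of the lysosomal membrane, with cathepsins and the proton pump left aside. They were listed by name under a rule that uses no measured value, though earlier results of these data were known. Each symbol matched 1 of the 55536 annotated genes. The data are 4 libraries of 1 group, numbered as biological replicates 1 to 4. The cells were bone marrow-derived macrophages of C57BL/6J mice, which are primary phagocytes grown from marrow, treated with lipid A at 100 ng/ml for 15 minutes. Lipid A is the part of bacterial lipopolysaccharide that Toll-like receptor 4 senses. Ribosome-depleted total RNA of the cytosolic fraction was sequenced, and no untreated or nuclear library was analysed here, so all values are levels in treated cells and not responses. All 4 libraries carry the same donor record, with sex and age not collected. Apart from the name biological replicates, nothing says that they came from separate animals or cultures. The spread between them, and every p-value, may therefore be technical.

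Lysosomes break down what a cell takes up or recycles, and macrophages, which engulf dying cells and microbes, are rich in them. Each soluble hydrolase removes a particular sugar, sulfate, acyl group or peptide from its substrate, so that loss of a single enzyme lets that substrate accumulate, as in the lysosomal storage diseases. Most soluble members reach the lysosome through a mannose phosphate tag, while heavily glycosylated membrane proteins line its wall and carriers and channels move products and ions out. Many of these genes share a short promoter palindrome, the CLEAR element, which the MiT/TFE factors (Tfeb, Tfe3, Mitf and Tfec) bind.

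The libraries held 30088678, 47961117, 40282297 and 45771235 expected counts on annotated genes in replicates 1 to 4, and each member had between 928 and 1000579 counts in a library. Of 10 macrophage markers, 10 were detected, that is at a mean of at least 1 TPM, a length-corrected level that sums to the same total in every library, and summed to between 5516 and 8875 TPM. The T cell, B cell, dendritic, erythroid, mast cell and stromal lists had 0 members detected, with sums of at most 1.38 TPM in any library. Of 7 neutrophil genes, S100a8, S100a9 and Ngp were detected, and that list summed to between 20.9 and 40.7 TPM. Replicate 1 stood apart from the rest. Across detected protein-coding genes, its log2 levels correlated with those of the other libraries at r between 0.944 and 0.953, against 0.989 to 0.993 among the other 3, as a description over genes, which are not independent replicates. The 7SL RNA took 57.1% to 63.3% of all TPM in the gene tables, and protein-coding genes took 30.1%, 23.1%, 22.9% and 32.4% in replicates 1 to 4. A member's TPM depends on that share as well as on its own level. Calls between libraries below therefore use counts scaled by TMM. Some levels are also given as TPM rescaled so that protein-coding genes alone fill that total (coding-scaled TPM). Values given as TPM alone are as deposited, and their spread between libraries is not corrected for that share.

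All 39 members were detected, over a 755-fold range of mean TPM. Psap, which encodes the precursor of the saposins that help hydrolases reach sphingolipids, was the most abundant at 4450 ± 1053 TPM (SD, n = 4), and Arsb, a sulfatase of dermatan sulfate, the least abundant at 5.89 ± 1.68 TPM. Among 22028 protein-coding genes, 8 members were in the 100 most abundant and 21 in the 1000 most abundant, with a median rank of 875. The median member had 47.7 TPM, against 8.07 TPM for the median of 9639 detected protein-coding genes. Of the 39, 13 reached 100 TPM and 36 reached 10 TPM. Together they made up 2.79%, 4.14%, 4.57% and 3.80% of protein-coding TPM in replicates 1 to 4. Psap alone supplied 35.2%, 46.5%, 49.5% and 42.3% of the members' summed TPM, and it lay 5.95-fold above the next member, Cd68.

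Ranked by class median of log2(TPM + 1), membrane glycoproteins came first at 8.31 ± 0.23 (SD, n = 4). Soluble proteins of neutral lipid and cholesterol handling followed at 7.81 ± 0.20, then protein-directed enzymes and progranulin at 7.73 ± 0.19. The sphingolipid class stood at 5.49 ± 0.28, the enzymes of glycoprotein sugars and glycogen at 4.94 ± 0.30, the membrane transporters at 4.74 ± 0.23 and the glycosaminoglycan hydrolases at 4.05 ± 0.24. The step from the protein class down to the sphingolipid class was the widest between neighbours, 2.24 ± 0.12 within libraries, and held in 4 of 4 libraries. Neutral lipid and protein classes were not separable, since their difference was 0.087 ± 0.087 and had this sign in 3 of 4 libraries. On the target tables, a second quantification of the same libraries, the protein class lay 0.020 ± 0.092 above the neutral lipid class and the transporters 0.020 ± 0.061 above the glycoprotein class, so both of those neighbours changed places there. The classes hold 3 to 9 genes each, and a class median is the level of a single gene or a pair of genes near its middle.

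**Figure D1:**
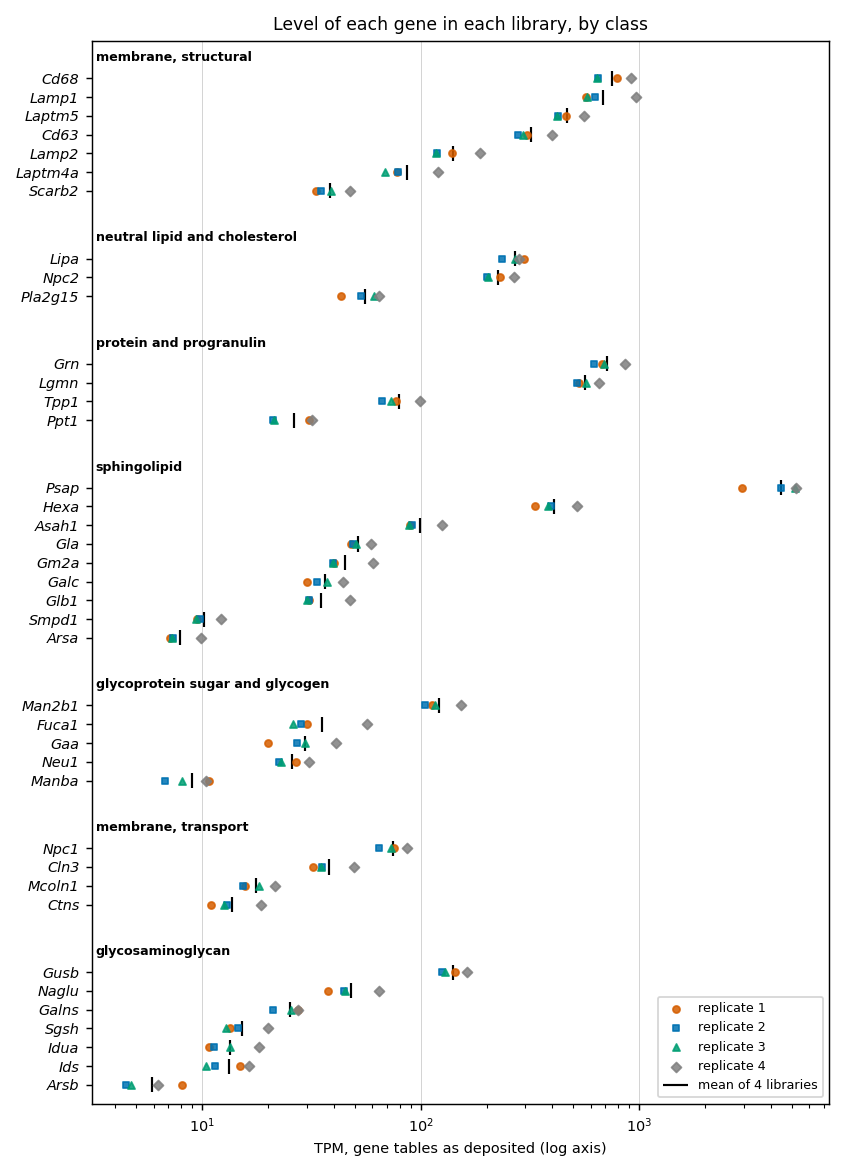
TPM of each of the 39 genes in each of the 4 libraries as deposited in the gene tables, on a log axis, grouped by class; symbols mark the replicates and black ticks the mean. Psap stands apart at 2958 to 5208 TPM, and replicate 4 (diamonds) is the highest library for 36 of the 39 genes.

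The promoters of the most abundant members that hold the CLEAR core are shown for that sequence feature. Many lysosomal genes are known to share it, as said above. Its higher frequency here than over all genes with a promoter is therefore not an independent result. RefSeq start sites gave promoters of 300 bases, from 250 before to 50 after the start on GRCm38.p6, for 36 of the 39 members, with none matched for Npc1, Asah1 and Galns. The motifs searched on both strands were CACGTG, then TCACGTG, and then GTCACGTG, each contained in the next. Of the 36 members, 9 (25%) held GTCACGTG, against 2.55% of all 27025 genes with a promoter and 5.43% of the detected protein-coding genes with a promoter. TCACGTG was held by 10 members (27.8%), against 4.29% of all genes with a promoter and 7.74% of the detected genes. Lamp1 held 4 matches, and its 250 bases before the start are given whole, followed by 30-base windows around the longest motif in the other 5 of the 6 most abundant holders. Capitals mark a match of the longest motif found at each CACGTG, in GRCm38.p6 coordinates. In the Cln3 and Gla windows an overlapping match on the other strand runs into the lower-case letters.
Lamp1, chr8:13158911-13159160, plus strand: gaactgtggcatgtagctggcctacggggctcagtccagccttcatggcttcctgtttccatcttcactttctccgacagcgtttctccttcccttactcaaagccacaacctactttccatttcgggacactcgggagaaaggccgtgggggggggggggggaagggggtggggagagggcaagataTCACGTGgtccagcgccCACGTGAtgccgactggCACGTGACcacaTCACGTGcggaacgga
Lgmn, chr12:102439125-102439154, minus strand: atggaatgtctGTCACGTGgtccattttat
Gla, chrX:134601183-134601212, minus strand: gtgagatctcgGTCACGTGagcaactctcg
Naglu, chr11:101070008-101070037, plus strand: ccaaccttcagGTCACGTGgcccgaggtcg
Cln3, chr7:126583341-126583370, minus strand: tcacgggtactGTCACGTGacccccaacct
Glb1, chr9:114401017-114401046, plus strand: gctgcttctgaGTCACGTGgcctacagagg

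In the Lamp1 promoter, the gene whose protein is a main glycoprotein of the lysosomal wall, matches began at -62, -45, -28 and -16 relative to the start. This stretch lay upstream of the annotated gene, as did the Gla and Glb1 windows, whereas the Naglu and Cln3 windows overlapped non-coding exon and the Lgmn window lay in an intron of the longer GENCODE gene model. The other members holding GTCACGTG were Mcoln1, with 2 matches, Sgsh and Arsa, and Gaa held only TCACGTG, at -141. Holders came from every class except the neutral lipid class, of which 0 of 3 held a match. A match is a run of letters in this window and says nothing about binding in these cells. The windows of the other members hold none of these letters, which likewise says nothing about the factors.

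**Figure D2:**
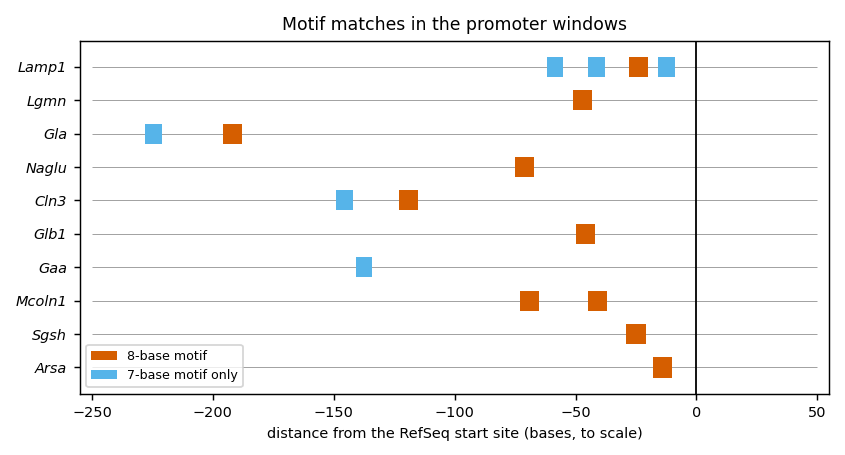
Positions of the motif matches in the promoters of the 10 members that hold any, as distance in bases from the RefSeq start site (black line), drawn to scale and ordered by mean TPM. Orange boxes are the longest motif and blue boxes the 7-base motif alone; 4 boxes fall within 62 bases upstream of the Lamp1 start.

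The structural membrane class was led by Cd68, the macrophage protein also known as macrosialin (chromosome 11, 69664213 to 69666153 in mm10, minus strand). It stood at 788, 646, 640.5 and 917 TPM in replicates 1 to 4, a mean of 748 ± 132 (SD, n = 4). Lamp1 (chromosome 8, 13159161 to 13175338, plus strand) stood at 569, 624, 579 and 962 TPM, and Lamp2, its homologue with a part in chaperone-mediated autophagy, at 140 ± 31.8 TPM. Lamp1 exceeded Lamp2 in every library, by 4.11- to 5.25-fold in TPM. Laptm5, a lysosomal protein of blood cells, reached 466 ± 64.3 TPM and exceeded its relative Laptm4a, at 86.3 ± 23.0 TPM, by 4.65- to 6.17-fold. The tetraspanin gene Cd63 stood at 320 ± 54.7 TPM, with the copy Cd63-ps at 2.32 TPM, and Scarb2, which carries glucocerebrosidase to lysosomes, was lowest of the class at 38.6 ± 6.39 TPM. Cd68, Grn and Lamp1, the genes at positions 2 to 4 of the overall order, could not be ranked among themselves: Cd68 lay above Grn in 3 of 4 libraries and Grn above Lamp1 in 2.

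Among soluble lipid genes outside the sphingolipid pathway, Lipa, the acid lipase that frees cholesterol and fatty acids from lipoprotein lipids (chromosome 19, 34492318 to 34527474, minus strand), stood at 297, 235, 271 and 281 TPM. Its coefficient of variation of 9.72% was the lowest of the 39 in deposited TPM. In log2 CPM scaled by TMM its SD was 0.216, close to the members' median of 0.218, so it was not steady on that scale. Npc2, which carries cholesterol within the lumen, had 225 ± 31.7 TPM, and Npc1, the membrane protein that receives it, had 74.8 ± 9.23 TPM. Their ratio was the steadiest of those computed for working partners, at 3.05, 3.12, 2.78 and 3.10 in replicates 1 to 4, though on the target tables it ran from 3.23 to 3.77. Pla2g15, the lysosomal phospholipase, had 43.1, 53.4, 61.2 and 64.7 TPM, with replicate 1 below the other 3.

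Grn, which encodes the precursor progranulin (chromosome 11, 102430315 to 102437048, plus strand), led the protein class with 674.5, 622, 690 and 857 TPM. Lgmn, the asparaginyl endopeptidase legumain that trims other lysosomal enzymes, followed at 567 ± 61.8 TPM. Tpp1, a tripeptidyl peptidase, had 79.1 ± 14.3 TPM. Ppt1, which removes palmitate from proteins, had 30.8, 21.02, 21.3 and 31.8 TPM, and in log2 CPM scaled by TMM it varied least of all members, with 6.62, 6.53, 6.53 and 6.55 (SD 0.045). Ppt1 overlaps Cap1 on the opposite strand, a gene with 141 TPM, so reads from the shared stretch may have been counted for either if counting ignored strand, which is not stated. The same holds at lower levels for Cln3 with Apobr (23.0 TPM), Galns with Gm20388 (12.0 TPM), Npc1 with Rmc1 (9.20 TPM), Idua with Dgkq (2.00 TPM) and Arsb with Gm26527 (1.30 TPM), while Glb1 shares its strand with the overlapping gene Tmppe (4.64 TPM).

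The sphingolipid class was the most uneven, spanning Psap at 4450 TPM to the sulfatide sulfatase Arsa at 7.91 ± 1.30 TPM. Psap (chromosome 10, 60277627 to 60302597, plus strand) stood at 2958, 4456, 5176 and 5208 TPM, lowest in replicate 1. Hexa, the alpha chain of beta-hexosaminidase, followed at 335, 396, 380 and 517 TPM. Hexa exceeded Gm2a, the activator that presents ganglioside to the enzyme, by 8.37- to 10.02-fold. Of the other enzymes, the acid ceramidase gene Asah1 had 98.8 ± 17.8 TPM, the alpha-galactosidase gene Gla 51.6 ± 5.21, the galactosylceramidase gene Galc 36.3 ± 5.95 and the beta-galactosidase gene Glb1 34.8 ± 8.55. Gm2a itself had 44.8 ± 10.2 TPM and Smpd1, the acid sphingomyelinase gene, 10.2 ± 1.34 TPM.

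Man2b1, the lysosomal alpha-mannosidase gene (chromosome 8, 85083270 to 85098282, plus strand), led the glycoprotein and glycogen class with 112, 104, 116 and 153 TPM. The fucosidase gene Fuca1 had 30.3, 28.2, 26.1 and 56.5 TPM. Its coefficient of variation in deposited TPM was the highest of the 39, 40.4%, set by replicate 4. In log2 CPM scaled by TMM its SD was 0.16, under the members' median of 0.22. Gaa, the acid glucosidase that degrades glycogen, had 20.0, 27.2, 29.6 and 40.9 TPM. The sialidase gene Neu1 had 25.7 ± 3.84 TPM and the beta-mannosidase gene Manba 9.01 ± 1.92 TPM. Neu1 and Glb1 proteins act in a complex with the protective protein encoded by Ctsa, which is not among the 39. Ctsa stood at 376 ± 49.3 TPM, 12.9- to 16.5-fold above Neu1 and 9.33- to 12.6-fold above Glb1.

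Among the transporters, Npc1 was highest, with 75.6, 64.2, 72.9 and 86.6 TPM (chromosome 18, 12189692 to 12236400, minus strand). Cln3, a membrane protein lost in juvenile Batten disease, had 37.9 ± 7.69 TPM, the cation channel gene Mcoln1 17.7 ± 2.84 TPM and the cystine exporter gene Ctns 13.7 ± 3.31 TPM. In the glycosaminoglycan class, Gusb, the beta-glucuronidase gene (chromosome 5, 129989011 to 130003049, minus strand), had 144, 125, 129 and 162 TPM and Naglu, an enzyme of heparan sulfate, 37.5, 44.5, 44.9 and 64.1 TPM. The remaining 5 lay lower: Galns, a sulfatase of keratan sulfate, at 25.3 ± 2.98, the heparan sulfamidase gene Sgsh at 15.2 ± 3.23, the iduronidase gene Idua at 13.4 ± 3.396, the iduronate sulfatase gene Ids at 13.3 ± 2.82 (14.9, 11.4, 10.4 and 16.4 in replicates 1 to 4) and Arsb at 5.89 TPM. Idua and Ids, which act one after the other on the same substrates, were not separable, since each was the higher in 2 of 4 libraries.

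The order of the 39 was similar in the 4 libraries. Over the members, Spearman's rho between pairs of libraries ran from 0.989 to 0.996, as a description with n = 39 genes that share libraries. Of 38 pairs of neighbours in the order of mean TPM, 19 had the same order in 4 of 4 libraries and 19 differed by more than the SD of their log2 ratio. In the middle of the list, each step of the run from Pla2g15 through Gla and Naglu to Gm2a had its order in 3 of 4 libraries. Spread between libraries was more than counting error for 39 of 39 members, by the deviance of a Poisson fit at an adjusted p under 0.05. Over the 14041 genes tested the share was 82.8%. That test finds smaller spread at higher counts, and every member had at least 928 counts in each library. The 39 of 39 is therefore not read as a trait of the members. Without replicate 1 the count of such members was 33, but the matching share over all genes was not taken, so the drop cannot be placed. The SD of TMM-scaled log2 CPM had a median of 0.22 over members, against 0.25 over all tested genes and 0.19 over detected protein-coding genes. The 3 members with the largest SD were Psap at 0.55, Gaa at 0.45 and Pla2g15 at 0.41, and the 3 with the smallest were Ppt1 at 0.045, Ids at 0.056 and Cd68 at 0.084.

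The scale decided which library looked highest. In deposited TPM of the gene tables, 36 of 39 members were highest in replicate 4. In coding-scaled TPM, 20 were highest in replicate 3 and 10 in replicate 4, and 33 were lowest in replicate 1. In deposited TPM of the target tables, 38 were highest in replicate 1 and 37 lowest in replicate 3. Protein-coding genes took 16.6%, 8.23%, 6.46% and 9.32% of TPM in the target tables of replicates 1 to 4. Levels also differed between the quantifications, with all 39 members 2.06- to 3.38-fold higher in the gene tables than in the target tables (median 2.84, against 2.60 over detected protein-coding genes). Psap, for example, had a mean of 1465 TPM in the target tables, Cd68 263 and Hexa 139. Rescaling to protein-coding genes lowered the median coefficient of variation from 18.1% to 13.7%.

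**Figure D3:**
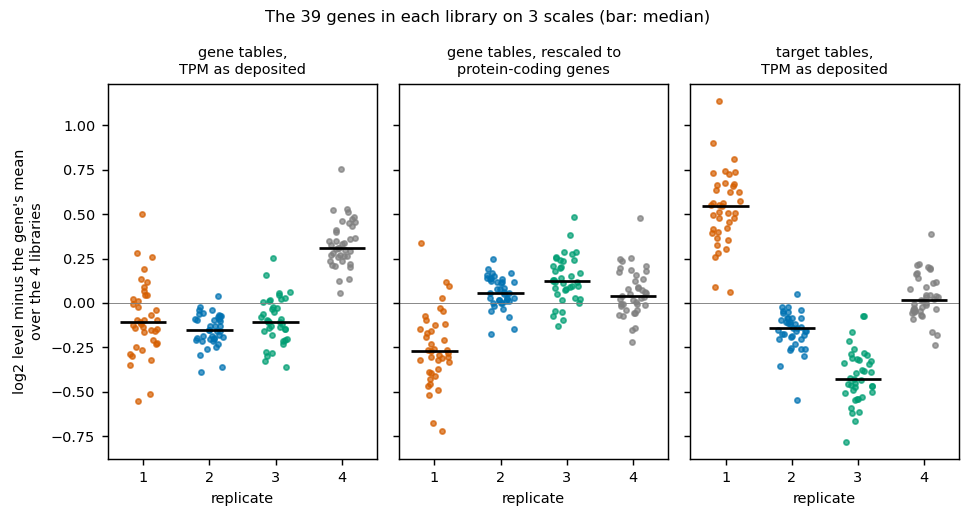
Each point is 1 of the 39 genes in 1 library, plotted as its log2 TPM minus that gene's mean over the 4 libraries, for TPM as deposited in the gene tables (left), rescaled to protein-coding genes (middle) and as deposited in the target tables (right); bars are medians. The library with the highest median is replicate 4 at 0.31, replicate 3 at 0.12 and replicate 1 at 0.55 in turn.

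With 1 group, the contrast available was each replicate against the other 3. After TMM scaling, replicate 1 had a lower level of 10 lysosomal members and a higher level of 1, at a Benjamini-Hochberg adjusted p under 0.05 in edgeR's quasi-likelihood test over 14041 genes. Over all tested genes, 22.0% were called in replicate 1, 14.5% as higher and 7.58% as lower, so 25.6% of members were called lower beside a background of 7.58%, and 2.56% higher beside 14.5%. Those backgrounds cover all tested genes and were not matched to the members' counts. The log2 fold was below 0 for 35 of 39 members, against 50.4% of all tested genes, and its median was -0.40 against -0.0046. Over detected protein-coding genes the fold was below 0 for 4160 of 9635 tested, with a median of 0.075. In coding-scaled TPM 33 of the 39 were lowest in replicate 1, but in TPM as deposited 13 were lowest there and in the target tables' TPM 38 were highest there. The count of lower members rested on the other libraries as well, at 6 without replicate 2, 8 without replicate 3 and 21 without replicate 4, beside backgrounds of 9.74%, 6.37% and 8.98%. It was 25 with DESeq2 (background 11.1%) and 4 on counts of the target tables (background 2.98%), and 10 with no filter on low counts (background 4.36%), of which 7 were also lower with the filter.

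Gaa differed most among the called members. Its coding-scaled TPM was 66.5 in replicate 1 and 117, 130 and 126 in the others, so replicate 1 lay outside their range, and the log2 fold was -0.90 ± 0.10 (SE; edgeR adjusted p = 0.00707). Naglu had 125 in replicate 1 against 192.5, 196 and 198, a log2 fold of -0.68 ± 0.09 (edgeR adjusted p = 0.0103). Ctns had 36.4 against 55.9, 54.9 and 57.2, a log2 fold of -0.63 ± 0.09 (edgeR adjusted p = 0.0105). These are an acid glucosidase, a heparan sulfate hydrolase and a cystine exporter, from 3 different classes. Hexa had 1114 against 1712, 1663 and 1594, a log2 fold of -0.61 ± 0.15 (edgeR adjusted p = 0.0404). Idua had 35.8 against 49.0, 58.4 and 56.2, a log2 fold of -0.59 ± 0.10 (edgeR adjusted p = 0.0170). In all 5 replicate 1 was the lowest library on this scale. The other 5 called lower were Cln3 at -0.58, Glb1 at -0.46, Sgsh at -0.46, Gm2a at -0.43 and Arsa at -0.40 on the log2 scale. Gaa, Naglu, Ctns and Idua kept their call in all 7 alternative settings that were run, Cln3 and Glb1 in 6 of 7 and Sgsh in 5 of 7. Hexa, Gm2a and Arsa kept it in 3 of 7, and lost it with no count filter, on the target tables, without replicate 2 and without replicate 3.

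Arsb was the single member called higher in replicate 1. Its coding-scaled TPM was 26.9 in replicate 1 and 19.3, 20.6 and 19.4 in the others, a log2 fold of 0.42 ± 0.10 (SE; edgeR adjusted p = 0.0411). The call was lost without replicate 2, without replicate 4 and with median-of-ratios scaling, under which the fold was 0.40. Psap, the most abundant member, had the largest log2 fold of all, -1.01 ± 0.28, but did not pass (edgeR adjusted p = 0.0616). Its coding-scaled TPM was 9838, 19272, 22641 and 16061 in replicates 1 to 4, so the other 3 libraries also differed among themselves. Pla2g15 behaved likewise, with 143, 231, 268 and 199.5 and a log2 fold of -0.73 ± 0.21 (edgeR adjusted p = 0.0647). Cd68 and Ids, the steadiest members after Ppt1, had log2 folds of -0.16 ± 0.13 and 0.02 ± 0.09.

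**Figure D4:**
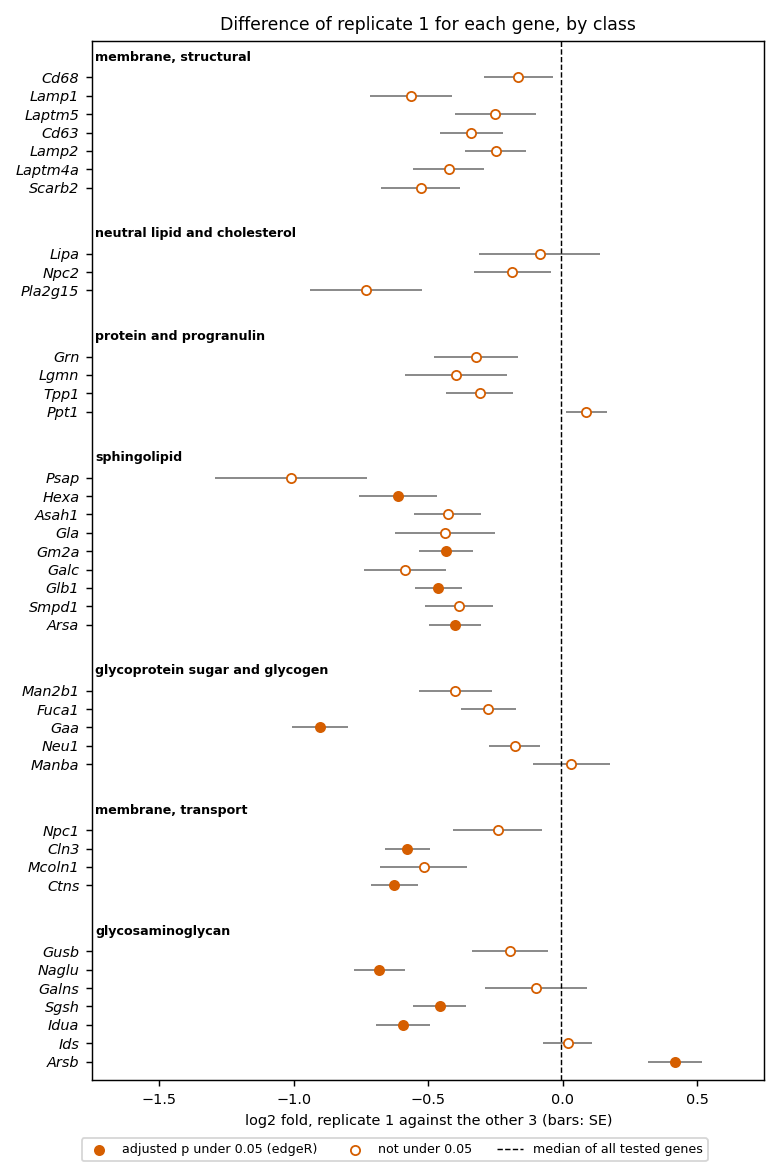
Log2 fold of replicate 1 against the other 3 libraries for each of the 39 genes (edgeR, TMM scaling), with bars of 1 SE, grouped by class; filled circles have an adjusted p under 0.05 and the dashed line is the median of all 14041 tested genes. Of the 39 points, 35 lie left of 0, and the called ones run from Gaa at -0.90 to Arsb at 0.42.

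By class, 4 of 9 sphingolipid genes were lower in replicate 1 and 0 higher, with a median log2 fold of -0.44. Of 7 glycosaminoglycan genes 3 were lower and 1 higher, of 5 glycoprotein and glycogen genes 1 was lower, and of 4 transporters 2 were lower with the lowest class median, -0.55. None of the 7 structural membrane genes, the 3 neutral lipid genes or the 4 protein-directed genes passed, and their median log2 folds were -0.34, -0.19 and -0.32. Classes were not tested against each other and hold 3 to 9 genes each, so no difference between classes is shown. Macrophage markers in the same contrast were mixed, with 3 of 10 higher and 1 lower, and 0 of the 5 tested neutrophil genes were called. In bulk RNA fewer cells of a kind and less RNA per cell cannot be told apart, and what set replicate 1 apart was not tested.

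No member was called in replicates 2, 3 or 4 on TMM-scaled counts. In each, 0 of 39 members and 0.0% of all genes had an edgeR adjusted p under 0.05, the smallest adjusted p of a member being 0.991. At an unadjusted p under 0.05 the members numbered 0 in each of these contrasts, beside 1.97%, 0.961% and 0.741% of all genes, and DESeq2 called 0 members. The log2 fold was below 0 for 4, 5 and 20 members, beside 60.5%, 53.0% and 52.0% of all genes. The members' median log2 folds were 0.12, 0.17 and -0.0036, and these contrasts share libraries with that of replicate 1, so they are not separate evidence. Replicate 1, which stood apart, is among the other 3 libraries in each of them and adds to their residual spread. The absence of calls there therefore says little.

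Of 81 other lysosomal pathway genes, 78 were detected and 21 were lower and 3 higher in replicate 1, beside the same backgrounds of 7.58% and 14.5%. Other hydrolases had 5 of 26 lower and 1 higher, and among the more abundant were Ctsa and Creg1, the latter at 169 ± 26.5 TPM. Other membrane genes had 10 of 26 lower and 0 higher, and their most abundant members were Slc15a3, Glmp and Slc11a1 at 119 ± 10.8, 111 ± 26.9 and 95.5 ± 12.6 TPM. The largest folds among the called genes belonged to Sidt2, a lysosomal membrane protein linked to nucleic acid uptake, at -1.18 ± 0.10, the calcium channel gene Tpcn1 at -1.05 ± 0.11 and the carboxypeptidase gene Prcp at -1.05 ± 0.12, with edgeR adjusted p of 0.00408, 0.00524 and 0.00636. The oligopeptide transporter gene Slc15a4 followed at -1.01 ± 0.09 and Flcn, a regulator of nutrient signalling at the lysosome, at -0.93 ± 0.11. Ctsa had a log2 fold of -0.41 ± 0.17 and did not pass.

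Of 10 genes that tag, sort or activate the hydrolases, 1 was lower in replicate 1 and 1 higher. M6pr, the small mannose phosphate receptor, had 81.4 ± 21.1 TPM, Sumf1, which activates all sulfatases, 24.7 ± 3.96 TPM and Igf2r, the large mannose phosphate receptor, 23.4 ± 3.75 TPM. Gnptab, which makes the mannose phosphate tag, was higher in replicate 1, with 30.9 TPM against 12.8, 14.5 and 16.03 and a log2 fold of 0.87 ± 0.15 (edgeR adjusted p = 0.0170). Among 19 regulators 5 were lower and 1 higher. Fnip2, Lamtor1 and Rragc, parts of the nutrient-sensing machinery on the lysosome surface, were the most abundant at 86.8 ± 28.5, 82.1 ± 15.0 and 78.6 ± 18.04 TPM. Of the MiT/TFE factors, Tfe3 was highest at 29.5 ± 6.44 TPM, and Tfeb, Mitf and Tfec stood close together at 11.1 ± 3.04, 11.0 ± 2.18 and 10.8 ± 3.06 TPM. Tfeb was lower in replicate 1, with a log2 fold of -0.74 ± 0.10 (edgeR adjusted p = 0.0100), whereas Tfe3, Mitf and Tfec had 0.0036 ± 0.079, 0.06 ± 0.08 and -0.32 ± 0.14 and did not pass.

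The motif and the fold in replicate 1 were set side by side without a test. Of the 10 members holding TCACGTG, 6 were called lower in replicate 1, with a median log2 fold of -0.49, and of the 26 members with a promoter lacking it 4 were, with a median of -0.32. The other pathway genes went the opposite way, with 4 of 17 holders and 15 of 46 genes without the motif called lower. Over all detected protein-coding genes the shares were 10.7% of holders and 10.1% of the rest.

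The deposited transcript tables give the percent of each gene's expression in each annotated transcript. For 33 of 39 members (84.6%) over 90% came from protein-coding transcripts, against 69.4% of detected protein-coding genes, and 36 had the same top transcript in 4 of 4 libraries. Among the 6 others, Arsa had the lowest coding share, with 58.5%, 76.5%, 66.3% and 65.2% assigned to the retained-intron transcript Arsa-201 in replicates 1 to 4, which left 33.4% ± 7.43 (SD, n = 4) for coding transcripts. In Npc1 a retained-intron class took 34.5%, 35.6%, 33.3% and 33.3%, the steadiest split of the 6. Mcoln1 had 11.0% ± 6.20 in retained introns, from 4.48% in replicate 2 to 17.9% in replicate 4. Gusb had 19.0% ± 6.88 in a nonsense-mediated decay transcript, Cln3 22.5% ± 3.18 in processed transcripts over 19 annotated forms, and Fuca1 14.6% ± 11.7 in processed transcripts, with 31.9% in replicate 4 and at most 11.2% elsewhere. These percentages rest on the authors' model assigning reads among overlapping transcripts, and their own error is unknown here.

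**Figure D5:**
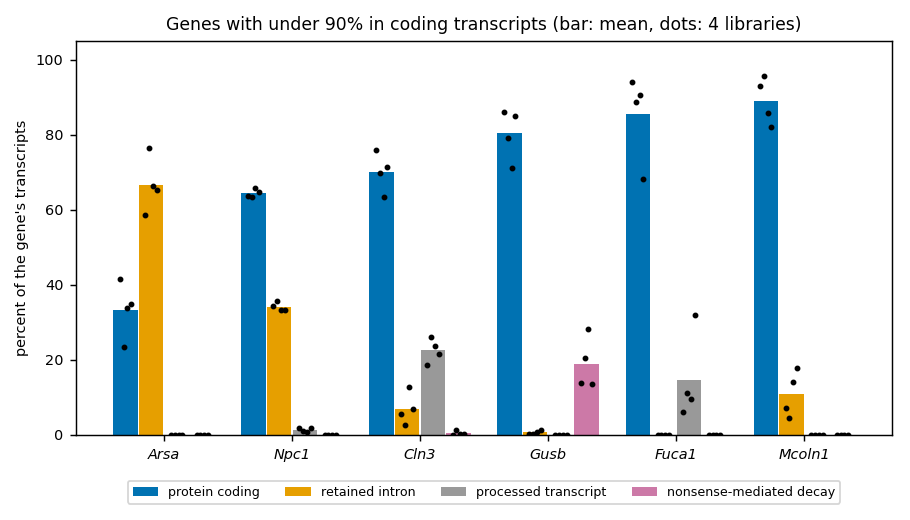
Percent of each gene's expression assigned to protein-coding, retained-intron, processed and nonsense-mediated decay transcripts for the 6 members with under 90% in coding transcripts; bars are means and dots the 4 libraries. Arsa is the single gene of the 6 whose retained-intron share, 66.6%, is above its coding share.

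Several members divided their RNA between a pair of coding transcripts. Lamp2 was split evenly, with 49.6% ± 2.33 in Lamp2-202 and 49.1% ± 2.50 in Lamp2-201, and which was higher changed between libraries. Lgmn had 52.1% ± 2.56 in Lgmn-201 and 47.7% ± 2.64 in Lgmn-202, Gaa 50.2% ± 5.22 in Gaa-203 and 48.5% ± 4.71 in Gaa-201, and Psap 57.6% ± 6.41 in Psap-202 and 39.8% ± 6.19 in Psap-203. For Gaa, too, the higher of the pair changed between libraries. Grn, in contrast, had 86.4% ± 3.21 in Grn-201. The interval that the authors deposited around a member's TPM spanned at most 28.6% of the value (Manba), with a median over members of 5.70% for the widest of the 4 libraries, below the median coefficient of variation between libraries of 18.1%.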

How the data were processed

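Ribosome-depleted RNA of the cytosolic fraction was sequenced from 1 µg of starting RNA with a size range of 250 to 400, per the labels. The authors deposited, for each library, a gene table and a transcript table with expected counts and TPM, and a target table with estimated counts and TPM. Text beside the files names the mm10 build with GENCODE M21, while aligner, quantifier and strandedness were not given in the sources used here. Isoform use is the percent column of the deposited transcript tables. The gene tables' interval bounds of TPM, as deposited, were used as widths. Features that name no gene held 0.407%, 0.224%, 0.177% and 0.0267% of expected counts in replicates 1 to 4 and were left out.

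Expected counts were rounded, and the 14041 genes averaging 10 or more counts entered edgeR 4.0.16 under R 4.3.3 with TMM scaling. The quasi-likelihood test set each replicate against the other 3, called at a Benjamini-Hochberg adjusted p under 0.05, so a lone replicate is taken to vary as the other 3 do. Standard errors came from the fold and the F statistic. Log2 CPM used a prior count of 2. The scripts were tested on simulated counts. Levels are TPM as mean ± SD, and class medians are of log2(TPM + 1). The depth was 30088678 to 47961117 counts, and a count of 0 would allow at most 0.0997 CPM in the shallowest library, from counting error only, as reads without molecular identifiers are not independent.

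The members and lists were chosen with earlier results of these data known. All 39 members are reported, with values per library for the most abundant of each class, the 3 largest and smallest SDs and called genes (up to 5 per direction by fold). Of the other pathway genes, the 3 most abundant of each list, the MiT/TFE factors, Ctsa and up to 5 called genes per direction are named, except that the values of some are not reported here. Protein sequences were not used here. DESeq2 1.42.0, median-of-ratios scaling (chosen after seeing the data), the target tables, no count filter, a pseudocount of 0.1, coding-scaled TPM and leaving out each library were the alternatives. Other steps ran in Python 3.11.15 with pandas 2.3.3, numpy 2.4.6, matplotlib 3.10.9 and scipy 1.17.1. Promoters are RefSeq's on GRCm38.p6.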

Additional observations from a re-analysis of the deposited data

Results flagged for a closer look

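In 7 of the 39 members, deposited TPM had 1 library far from the other 3, meaning that its gap to the nearest library took up most of the whole range (Dixon's 95% limit for 4 samples). Replicate 4 was the high one in each: Gm2a at 60.2 TPM (others 39.5 to 40.0), Glb1 at 47.6 (30.2 to 30.8), Arsa at 9.85 (7.12 to 7.37), Asah1 at 125.5 (88.8 to 91.4), Smpd1 at 12.2 (9.33 to 9.76), Fuca1 at 56.5 (26.1 to 30.3) and Lamp1 at 962 (569 to 624). The medians of the sphingolipid and the glycoprotein and glycogen classes stood apart in the same library, at 5.91 and 5.39 on the log2(TPM + 1) scale. Chance flags about 1 in 20 groups. Protein-coding genes held 32.4% of TPM in replicate 4 and 22.9% to 30.1% in the others. In coding-scaled TPM 0 members stood apart as high in replicate 4, and 5 stood apart as low in replicate 1 (Naglu, Ctns, Cln3, Asah1 and Cd68).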

How the results depend on the processing

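The count of members lower in replicate 1 was 10, and it became 25 with DESeq2 and 4 on the target tables, and ranged from 6 to 21 when a library was left out. The count higher in replicate 1 was 1, and it was 0 with median-of-ratios scaling and 0 to 1 when a library was left out. The cause was not tested. No called fold changed sign under any setting run, and counts for replicates 2 to 4 stayed at 0. On the target tables the class medians of log2(TPM + 1) were 4.20 for all members, 4.03 for sphingolipid, 2.68 for glycosaminoglycan, 3.53 for glycoprotein and glycogen, 6.25 for neutral lipid, 6.27 for protein, 6.77 for structural membrane and 3.55 for transport genes. Over protein-coding genes they were 7.46, 7.36, 5.88, 6.80, 9.71, 9.62, 10.2 and 6.59 in that order, since the denominator is smaller. A pseudocount of 0.1, the filter at 1 TPM and leaving out a library moved no class median beyond its SD. No paired analysis was possible because the data hold 1 group. With 1 library against 3, the lone library adds no residual degree of freedom, which limits what the tests can show.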
